A study of Sus scrofa with 16 samples.

Results

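The genes AIF1, CD14, CD163, CSF1R, C1QA, C1QB, C1QC, TYROBP and CD74, which serve as markers of macrophages and of the C1q component of complement, were described in the pituitary of pigs. They were taken by symbol from the 25880 Ensembl genes (Sscrofa11.1) of the count table. All 9 were found, and all 9 passed the expression filter that left 13621 genes for testing. The data were whole pituitaries of 16 Złotnicka White gilts, all labelled as 180 days of age. Of these, 8 had low feed conversion (LFC) and 8 had high feed conversion (HFC). The pigs of this native breed came from different farms, were unrelated, and were kept and slaughtered at about 100 kg at 1 test station. In the paper the age at the end of the test varied between pigs, and the HFC pigs of this breed spent longer in the test. Time in test and feed conversion group can therefore not be told apart here. Levels are given as CPM, counts relative to the library size after scaling for library composition, and a negative log2 fold change means lower expression in the HFC pigs.

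Tissue macrophages take up dead cells, microbes and haemoglobin, present antigen and release complement proteins. They depend on the receptor CSF1R, and in the posterior lobe of the pituitary, a neural tissue, they take the form of microglia. C1q is built from A, B and C chains and opens the classical complement pathway when it binds antibody or cell debris, and macrophages and microglia are its main source in many tissues.

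The depth of the libraries was between 6010629 and 11794256 counts per pig, with medians of 7803047 (LFC) and 9027332 (HFC), and it limited the precision of counting for the lower genes. CD14 was read from 15 to 70 counts per pig, so that counting alone gave an error of 25.8% in the pig with the fewest. For AIF1 this error was at most 20.9%, for CD163 and TYROBP at most 14.6%, and for the C1q genes and CD74 at most 6.01%. These errors cover counting only. The libraries did not keep the strand of the RNA, and 2 of the genes overlap others in their annotated spans. CSF1R overlaps HMGXB3, and the 33876 bases of CD74 in the Ensembl annotation run over TCOF1 and RPS14, whereas its RefSeq span is 7715 bases. How many reads of CSF1R and CD74 lay in shared stretches was not measured. The level of CSF1R had an r of 0.09 with HMGXB3 over the pigs and that of CD74 an r of 0.04 with TCOF1. No r with RPS14 is given here, and these values do not measure shared reads.

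None of the 9 genes differed between the groups at the level for calling, an adjusted p up to 0.05 together with a 1.3-fold change, against 0.0% of all genes tested (edgeR, quasi-likelihood test, Benjamini-Hochberg adjustment). The count at an unadjusted p up to 0.05 was also 0 of 9, against 4.41% of all genes higher in the LFC pigs and 7.03% higher in the HFC pigs. DESeq2 called 29 genes in all and none of the 9, and limma voom called none. The paper, which also used DESeq2 at these limits, reports many more genes for this breed and lists AIF1 among them. Why the counts of called genes differ was not tested. The log2 fold change was negative for 7 of the 9 and their median was -0.12, beside 7095 of 13621 genes and a median of -0.01 among all genes. The lowest values were those of AIF1, TYROBP and C1QA, and CSF1R and CD74 were the genes at or above 0. Further macrophage markers were present in both groups. The lysosomal protein CD68 had 7.15 ± 1.55 and 6.56 ± 2.75 CPM in LFC and HFC pigs (SD, n = 8 each), the myeloid transcription factor SPI1 12.2 ± 3.37 and 11.9 ± 4.82 CPM, and PTPRC, the leukocyte antigen CD45, 11.2 ± 2.87 and 10.2 ± 3.76 CPM. The symbols ITGAM, ADGRE1 and TMEM119 were not found among the names used here. In the whole gland, fewer macrophages and less RNA per macrophage cannot be told apart.

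AIF1 (ENSSSCG00000032341, chromosome 7, 23729215 to 23734949) encodes IBA1, a calcium- and actin-binding protein of macrophages and microglia. It ran from 5.79 to 18.8 CPM (median 8.05) among LFC pigs and from 2.08 to 15.8 CPM (median 5.72) among HFC pigs. The groups overlapped, although 4 of the 8 HFC pigs lay below the lowest LFC pig. The means were 10.2 ± 4.42 CPM (SD, n = 8) and 6.90 ± 4.59 CPM (SD, n = 8), a log2 fold change of -0.57 ± 0.35 (SE, adjusted p = 0.489, edgeR). Its exact two-sided permutation p was 0.0939. Across all 16 pigs AIF1 varied 9.05-fold, and its spread on the log2 scale was wider than that of 96.9% of genes.

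TYROBP (ENSSSCG00000002919, chromosome 6, 45309201 to 45312539) encodes DAP12, the adaptor that passes on the signals of activating receptors of myeloid cells such as TREM2. The LFC pigs had between 7.62 and 18.6 CPM with a median of 10.9, and the HFC pigs between 4.97 and 15.6 CPM with a median of 7.92. Here 7 of 8 HFC pigs lay below the LFC median, and HFC replicate 6 alone lay above it. Mean levels were 11.9 ± 4.01 and 8.52 ± 3.49 CPM (SD, n = 8 each), and the log2 fold change was -0.49 ± 0.24 (SE). Its unadjusted p of 0.0616 was the smallest of the 9 genes, and its adjusted p was 0.443 (edgeR).

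CSF1R (ENSSSCG00000014441, chromosome 2, 151099084 to 151129407) is the receptor for the growth factors CSF1 and IL34. Its level was 18.2 to 53.5 CPM, median 30.8, in the LFC pigs and 15.9 to 79.5 CPM, median 31.6, in the HFC pigs. HFC replicate 6 had the highest level and HFC replicate 3 the lowest, so that the HFC pigs spanned the whole range of the LFC pigs. The log2 fold change was 0.10 ± 0.30 (SE, adjusted p = 0.885, edgeR), and without HFC replicate 6 it was -0.17. The ligand CSF1 had 12.1 ± 2.77 CPM in the LFC and 13.7 ± 4.61 CPM in the HFC pigs (SD, n = 8 each). IL34, the other ligand, had 30.3 ± 14.0 and 27.1 ± 16.5 CPM, so that neither ligand shifted by more than the spread among pigs.

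CD14 (ENSSSCG00000014369, chromosome 2, 142346211 to 142349349) binds bacterial lipopolysaccharide and hands it to TLR4 and LY96. It measured 3.90 to 5.52 CPM (median 4.59) among LFC pigs and 2.29 to 7.46 CPM (median 3.98) among HFC pigs. All LFC pigs, with 29 to 47 counts each, lay close together, whereas 4 HFC pigs were below and 2 above all of them. CD14 thus had a log2 fold change of -0.11 ± 0.22 (SE, adjusted p = 0.831, edgeR). TLR4 had a log2 fold change of -0.33 ± 0.31 (SE).

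CD163 (ENSSSCG00000033146, chromosome 5, 63300146 to 63334537) is the receptor by which macrophages take up haemoglobin bound to haptoglobin. Its range was 7.15 to 19.2 CPM, median 15.0, in the LFC pigs and 4.33 to 27.2 CPM, median 11.4, in the HFC pigs. HFC replicate 4 was the highest of all pigs and HFC replicate 8 the lowest. Its log2 fold change of -0.09 ± 0.29 (SE) had an adjusted p of 0.894 (edgeR) and became 0.067 without HFC replicate 8. HMOX1, which breaks down the haem that is taken up, had 6.23 ± 1.28 and 6.75 ± 1.82 CPM in the LFC and HFC pigs (SD, n = 8 each).

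The C1q genes lie in the order C1QA, C1QC, C1QB within 21829 bases of chromosome 6. C1QA (ENSSSCG00000003524, 80586183 to 80591269) had 43.0 to 94.8 CPM, median 71.9, in the LFC pigs and 25.0 to 81.7 CPM, median 45.5, in the HFC pigs. C1QA had a log2 fold change of -0.39 ± 0.21 (SE, unadjusted p = 0.0773, adjusted p = 0.455, edgeR), and 7 of 8 HFC pigs lay below the LFC median. C1QB (ENSSSCG00000033512, 80601303 to 80608011) had 59.7 to 103.7 CPM, median 78.2, against 32.6 to 117 CPM, median 56.6. For C1QB, 5 of 8 HFC pigs lay below all LFC pigs, while HFC replicate 6 lay above all of them. C1QB had a log2 fold change of -0.30 ± 0.21 (SE, adjusted p = 0.531, edgeR). C1QC (ENSSSCG00000038706, 80592198 to 80599440) had 57.6 to 89.3 CPM, median 73.4, in the LFC pigs and 32.0 to 105.8 CPM, median 64.5, in the HFC pigs. At a log2 fold change of -0.12 ± 0.20 (SE), C1QC was the C1q gene closest to 0, and its value was 0.014 without HFC replicate 8.

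CD74 (ENSSSCG00000033262, chromosome 2, 151399969 to 151433844) encodes the invariant chain, which guides MHC class II molecules to the compartment where they are loaded with peptide. It was the most even of the genes among the LFC pigs, from 311 to 384 CPM with a median of 350.2. The HFC pigs ran from 260 to 499 CPM with a median of 341. Between the groups its log2 fold change was 0.00 ± 0.12 (SE, adjusted p = 0.993, edgeR). CIITA, the activator of transcription of class II genes and of CD74, had 14.5 ± 1.28 and 15.1 ± 2.08 CPM in the LFC and HFC pigs (SD, n = 8 each). MIF, a cytokine that binds CD74 at the cell surface, had 213 ± 38.7 and 207 ± 25.5 CPM.

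**Figure D1:**
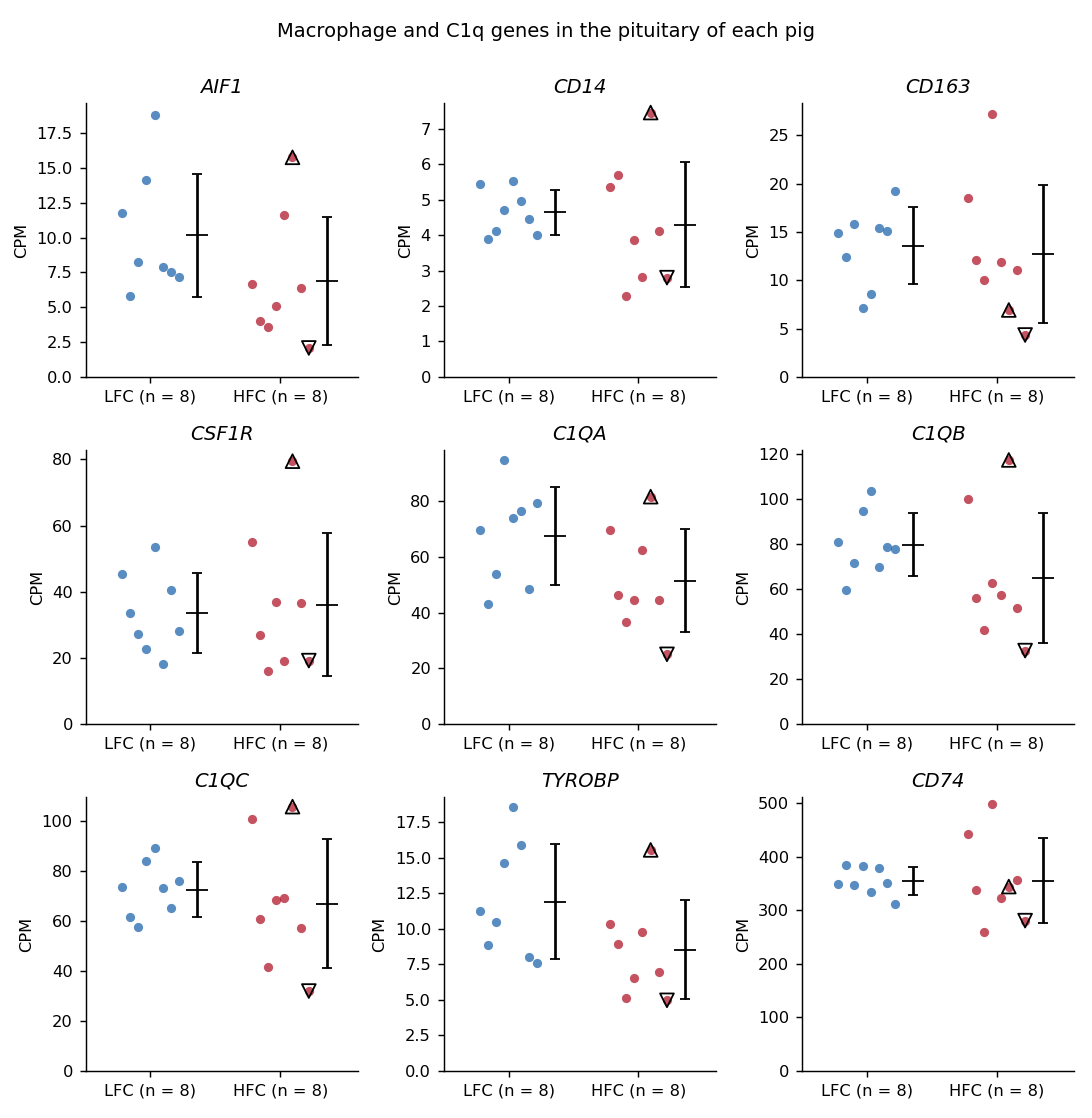
CPM of each gene (vertical axis, from 0) in the 8 LFC pigs (blue) and the 8 HFC pigs (red), with 1 point per pig and black bars for the mean and SD. The upward triangle marks HFC replicate 6 and the downward triangle HFC replicate 8, which were the highest or lowest HFC pig for most genes. The SD in CPM is larger in the HFC pigs for every gene except TYROBP.

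The HFC pigs were more spread than the LFC pigs for all 9 genes, beside 50.1% of all genes tested by the standard deviation of log2(CPM + 1). The coefficient of variation of C1QC was 14.9% in the LFC and 38.5% in the HFC pigs, and that of CD74 was 7.31% and 22.4%. For CD14 these values were 13.6% and 41.0%. Its LFC pigs had at most 47 counts each, at which counting alone gives an error of 14.6%. The LFC value of CD14 was thus below its counting error, so the evenness of these pigs cannot be told from counting. The HFC value was above the largest counting error of CD14, 25.8%. The difference in spread was not tested, and the 9 genes are not independent of each other.

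Most of the highest and lowest levels were found in 3 HFC pigs. HFC replicate 6 had the highest level of all 16 pigs for CD14, CSF1R, C1QB and C1QC and was among the 3 highest for 7 of the 9 genes. It went the other way for CD163, with 6.92 CPM. HFC replicate 8 was the lowest for AIF1, CD163, TYROBP and all C1q genes and among the 3 lowest for all 9. HFC replicate 3 was the lowest for CD14, CSF1R and CD74 and was in the lowest 3 for 8 genes. Among the LFC pigs, replicate 5 had the highest AIF1 and TYROBP of all pigs, and replicate 4 the highest C1QA.

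The values of the comparison depended on single pigs, while no adjusted p of the 9 genes came below 0.243 when any 1 pig was left out (edgeR). Without HFC replicate 6, 4 of the 9 genes had an unadjusted p up to 0.05 and were lower in the HFC pigs, against 5.15% of all genes in that direction. These were AIF1 with a log2 fold change of -0.88, TYROBP with -0.67, C1QA with -0.52 and C1QB with -0.47. Their adjusted p-values over all genes were at least 0.307 (edgeR). The same 4 genes had an unadjusted p up to 0.05 with all pigs in limma voom with weights for sample quality, against 9.01% of all genes. Without HFC replicate 8 all 4 were closer to 0, with log2 fold changes of -0.40 for AIF1, -0.37 for TYROBP, -0.26 for C1QA and -0.17 for C1QB. Without LFC replicate 5, the highest pig for AIF1 and TYROBP, these genes were at -0.38 and -0.36.

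**Figure D2:**
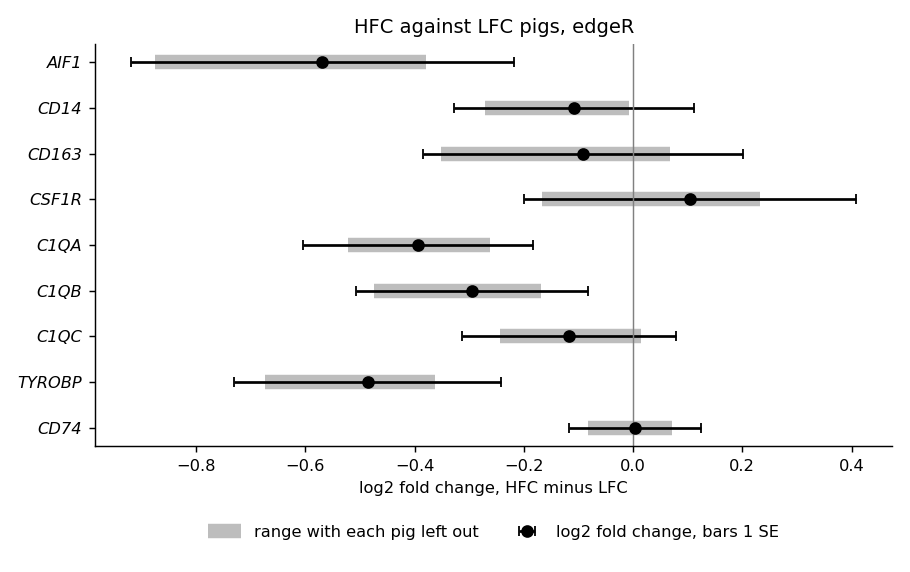
Log2 fold change of each gene, HFC minus LFC (horizontal axis), from edgeR with all 16 pigs. Points are the estimates, bars 1 standard error, and grey bands the range of the estimate when each pig was left out in turn. AIF1, TYROBP, C1QA, C1QB and CD14 stayed below 0 throughout, while the bands of CD163, CSF1R, C1QC and CD74 cross 0.

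The genes rose and fell together from pig to pig to different degrees. Of the 36 pairs, 34 had a positive Pearson's r of log2(CPM + 1) over the 16 pigs, the median r was 0.58, and 19 had an adjusted p up to 0.05 (permutation test, 100000 resamples, adjusted over the 36 pairs). Between 16 and 22 pairs did so when each pig was left out in turn. C1QB and C1QC were the closest pair, with an r of 0.94 (Spearman's rho 0.90). Their permutation p was 1e-05, the smallest these resamples can give, and adjusted 0.00012. Within the LFC pigs their r was 0.82 and within the HFC pigs 0.98, and without the 2 pigs farthest from the median it was 0.88.

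C1QA had an r of 0.89 with C1QC and 0.87 with C1QB, so all chains of C1q varied alike. AIF1 followed TYROBP with an r of 0.85 (adjusted permutation p = 0.00036, rho 0.86) and C1QA with an r of 0.85. CD14 had its highest r with C1QB, 0.79, and its lowest among AIF1, TYROBP and the C1q genes with AIF1, 0.57. Among AIF1, TYROBP, CD14 and the C1q genes, a set chosen after the values were seen, r ran from 0.57 to 0.94 over 15 pairs and from 0.43 to 0.88 without the 2 farthest pigs.

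CSF1R stood partly apart from this set. Its r was 0.75 with CD14 (adjusted permutation p = 0.00244, rho 0.58) and 0.70 with C1QB, yet 0.40 with TYROBP and 0.36 with C1QA. The relation of CSF1R and C1QB was 0.36 within the LFC pigs and 0.89 within the HFC pigs, and without the 2 farthest pigs it was 0.55.

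CD163 did not vary with most of the other genes. Its r was between -0.08 and 0.29 with 7 of them, and none of these 7 had an adjusted permutation p up to 0.05. Within the LFC pigs it was negative with all 8, and for AIF1 it was -0.73. With C1QB its r was 0.20 over all pigs and -0.15 without the 2 farthest pigs. The 1 gene it followed over all pigs was CD74, with an r of 0.58 (adjusted permutation p = 0.0366, rho 0.44 with adjusted p = 0.165). That relation was 0.81 within the HFC and -0.42 within the LFC pigs and fell to 0.20 without HFC replicates 8 and 4, so it rested on those pigs.

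**Figure D3:**
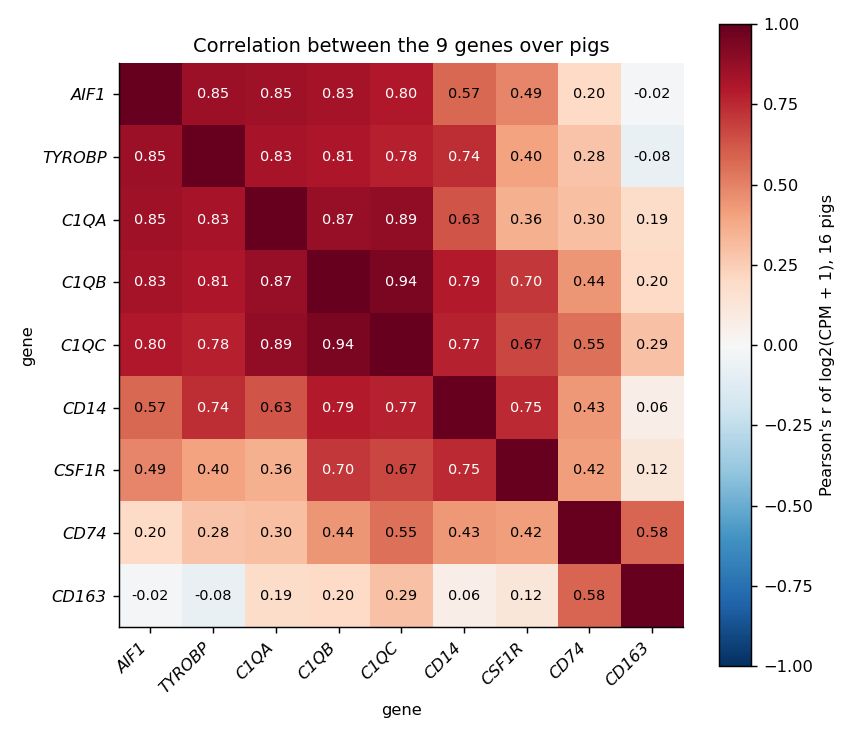
Pearson's r of log2(CPM + 1) over 16 pigs for each pair of the 9 genes, from -1 (blue) to 1 (red), with the value in each cell. AIF1, TYROBP, the C1q genes and CD14 form a block of high values, CSF1R joins it through CD14, C1QB and C1QC, and CD163 has values near 0 except with CD74.

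The genes outside the 9 whose levels were most like theirs also differed. For AIF1 they were TASL, RGS10 and GPR34, with r between 0.927 and 0.930 over the 16 pigs, and 0.918% of all genes had an r of at least 0.8 with it. GPR34, a lysophosphatidylserine receptor of microglia, was also among the closest 3 for all C1q genes, with an r of 0.923 for C1QA. For C1QB the closest was LAPTM5, a lysosomal membrane protein of blood cells, with an r of 0.931. CD14 was closest to FCER1G, an adaptor of Fc receptors, with an r of 0.906. TYROBP followed RFTN2, RAP2A and the myeloid transcription factor IRF8, with r from 0.891 to 0.898.

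CSF1R was closest to NRP2, a receptor for semaphorins and VEGF, with an r of 0.956, and next to ITGB2, the beta chain of leukocyte integrins, with 0.944. CD74 had LRRC32, COL6A2 and C1R nearest, at 0.897, 0.853 and 0.851. CD163 had few close genes, with ANKRD16, EPB41L4A and NHLRC2 at 0.834, 0.823 and 0.759. Only 2 of the other genes, 0.0147%, reached an r of 0.8 with CD163. These values are descriptions over the same 16 libraries.

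Partner genes varied in how closely they followed the gene they act with. CSF1 had an r of 0.83 with CSF1R, and IL34 an r of 0.71 with CSF1R and 0.79 with C1QB. TREM2, a receptor that signals through TYROBP, had an r of 0.80 with it and the highest level, 10.2 CPM, in HFC replicate 6. C1R and C1S, the proteases that C1q activates, had r of 0.85 and 0.70 with CD74 but 0.44 and 0.62 with C1QB. CIITA had an r of 0.73 with CD74. MRC1, a mannose receptor of tissue macrophages that was named after its values were seen, had an r of 0.75 with CD163.

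Of the pathway lists, no gene was called between the groups in edgeR. In the list of CSF1R ligands and myeloid transcription factors 8 of 10 tested genes were higher in the LFC pigs, among TYROBP partners 6 of 9 and in CD14 and toll-like receptor signalling 8 of 10, and none had an unadjusted p up to 0.05. The smallest unadjusted p-values there were those of TLR1 and BTK, 0.0576 and 0.0636, at log2 fold changes of -0.58 and -0.71. Of 22 tested genes of the classical complement pathway and its regulators, 14 were higher in the LFC pigs and none reached an unadjusted p of 0.05. Among all genes, 7095 of 13621 were higher in the LFC pigs. An unadjusted p up to 0.05 was reached by 4.41% of all genes in that direction and by 7.03% in the other (edgeR). The genes of a list are not independent of each other, and no list was tested as a set. C3, the protein on which the complement pathways converge, had 126 ± 24.4 and 142 ± 98.3 CPM in the LFC and HFC pigs (SD, n = 8 each), and SERPING1, the inhibitor of C1R and C1S, 144 ± 22.3 and 160 ± 27.2 CPM.

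In the MHC class II list 11 of 15 genes were higher in the LFC pigs, and 2 genes, RFXANK and SLA-DMB, reached an unadjusted p up to 0.05 with log2 fold changes of -0.41 and -0.52, beside 4.41% of all genes in that direction. Of 37 other macrophage and microglia genes, 26 were higher in the LFC pigs, and 2 of the 37, MSR1 at -0.75 and GPNMB at -0.94, were at an unadjusted p up to 0.05, a share near that of all genes. Without HFC replicate 6 the number at that level in this list was 10, beside 5.15% of all genes higher in the LFC pigs, and without LFC replicate 3, HFC replicate 3 or HFC replicate 8 it was 0. In the MHC class II list it was 1 to 4 when each pig was left out. The median log2 fold change was -0.12 in the list of other macrophage and microglia genes and -0.01 over all genes. In the list of haemoglobin and haem clearance, LRP1 was the one gene at that level, with a log2 fold change of 0.72 in the direction of the HFC pigs. The adjusted p of these genes was at least 0.41 (edgeR).

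Genes of glia and of the posterior lobe moved with many of the 9 genes. The summed level of this list, which includes the myelin gene MBP and VIM, was 553 to 6871 CPM in the LFC pigs and 296 to 4424 CPM in the HFC pigs. VIM alone had means of 460 and 489 CPM in the LFC and HFC pigs, beside medians of 895 and 807 CPM for the sum. In HFC replicate 7 it made up 813 of 1139 CPM. The summed level was highest in LFC replicate 5 and HFC replicate 6 and lowest in HFC replicates 3 and 8. Over the 16 pigs its log2 level had an r of 0.81 with CSF1R, 0.79 with AIF1, 0.73 with C1QB, 0.71 with CD14, 0.69 with TYROBP and 0.65 with C1QC. These 6 had an adjusted permutation p of at most 0.028 over 54 relations of the 9 genes with 6 lists. When the 2 pigs with the most extreme levels of the list were left out, r was 0.72 for CSF1R, 0.65 for AIF1 and 0.45 for TYROBP. Spearman's rho was 0.79 for CSF1R, 0.74 for AIF1, 0.70 for C1QB and 0.63 for CD14, each with an adjusted permutation p of at most 0.0455, and 0.59 and 0.49 for TYROBP and C1QC, with adjusted permutation p-values of 0.0714 and 0.144. Within the LFC pigs the r of AIF1 with the list was 0.73, and within the HFC pigs it was 0.85. With C1QA the r was 0.50 (adjusted permutation p = 0.114, rho 0.41), at -0.0050 within the LFC and 0.79 within the HFC pigs. With CD163 it was -0.11 and with CD74 0.19.

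By single genes, 10 of the 11 tested genes of the glia list had an r of at least 0.5 with C1QB, against 8.33% of all genes. P2RY12 and CX3CR1, receptors typical of microglia that were named after their values were seen, had r of 0.85 and 0.81 with C1QB, and 0.91 and 0.74 with AIF1. Both were highest in HFC replicate 6, at 20.1 and 28.4 CPM. The summed level of the hormone cell list was 92621 to 159895 CPM in the LFC and 105159 to 223960 CPM in the HFC pigs. It went the opposite way, with an r of -0.78 for AIF1 and -0.65 for C1QB. The sum was lowest in LFC replicate 5 and among the 3 highest in HFC replicates 2, 3 and 8. By rank, rho was -0.70 for AIF1 (adjusted permutation p = 0.0204) and -0.54 for C1QB (adjusted permutation p = 0.0978). Over the 14 tested genes of this list the median r was weaker, -0.36 with AIF1 and -0.28 with C1QB. The symbol POMC was not found for this list, and how far the sum rested on single hormone genes was not tested.

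The contrast of the groups was also fitted with the level of the glia list as a covariate and without the 2 pigs in which that list was highest, both added after the data were seen. With the covariate 0 of the 9 genes had an unadjusted p up to 0.05, against 6.27% of all genes higher in the LFC pigs. The log2 fold change was then -0.39 for AIF1, -0.37 for TYROBP, -0.35 for C1QA and 0.30 for CSF1R. Without LFC replicate 5 and HFC replicate 6, AIF1, TYROBP, C1QA and C1QB had an unadjusted p up to 0.05 at log2 fold changes of -0.69, -0.55, -0.50 and -0.41, against 4.05% of all genes. The part of differing shares of posterior lobe in these values was not tested.

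**Figure D4:**
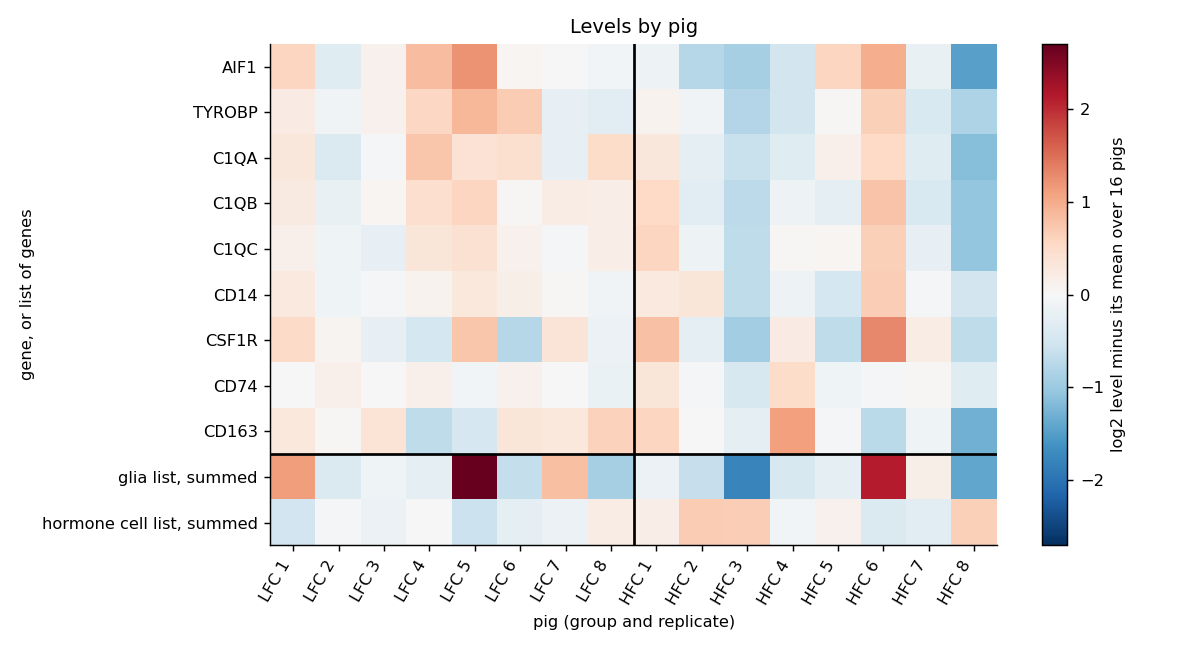
Log2 level of each of the 9 genes, and of the summed CPM of the glia and hormone cell lists, minus its mean over the 16 pigs (red above, blue below), with LFC pigs left and HFC pigs right of the vertical line. HFC replicates 3 and 8 are low and HFC replicate 6 high for most genes and for the glia list, and CD163 is low in HFC replicate 6 and high in HFC replicate 4.

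Markers of other cells were compared with the 9 genes in the same way. The summed level of 21 T and NK cell genes was 38.4 to 74.2 CPM in the LFC and 39.3 to 69.6 CPM in the HFC pigs, and 5 of the 9 genes followed it at an adjusted permutation p up to 0.05, with the highest r at 0.84. These were AIF1, TYROBP and the C1q genes. Of the 21 genes, 8 passed the expression filter, and CD247 alone had means of 32.3 and 24.6 CPM in the LFC and HFC pigs. The r with AIF1 was 0.78 for CD247 and also for CD2, whereas the median r over the tested genes of the list was 0.385. How far the relations with the summed level rested on CD247 was not tested. CD74 was the 1 gene that followed the endothelium list, with an r of 0.83 (adjusted permutation p = 0.00202, rho 0.72), against 0.19 with the glia list. Its r with the endothelium list was 0.45 within the LFC pigs, 0.96 within the HFC pigs and 0.71 without HFC replicates 3 and 1. The red blood cell list had 301 to 1467 CPM in the LFC and 93.6 to 1075 CPM in the HFC pigs, with its highest level in LFC replicate 4, the pig with the highest C1QA, and no Pearson's r of the 9 genes with it or with the interferon-induced list had an adjusted permutation p up to 0.05. By rank, AIF1 followed the red blood cell list (rho 0.64, adjusted permutation p = 0.0426; r 0.54, adjusted p = 0.0816). The part of these cells in the levels of the 9 genes was not tested.

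Because the C1q genes varied so closely, their counts were also set against each other within each pig, a comparison chosen after their values were seen. The ratio of C1QB to C1QC counts had a median of 1.11 among LFC pigs and 0.955 among HFC pigs, over a range from 0.8293 to 1.24. All 8 HFC pigs lay below the LFC median, although the groups overlapped. The mean log2 ratio was 0.13 ± 0.14 (SD, n = 8) and -0.06 ± 0.13 (SD, n = 8), a difference of -0.19 with an exact two-sided permutation p of 0.0163, or 0.0490 adjusted over the 3 ratios. The exact permutation p ran from 0.00668 to 0.0339 when each pig was left out in turn. Adjusted over the 3 ratios it ran from 0.0177 to 0.0979 (exact permutation) and was up to 0.05 in 6 of the 16 cases, so the adjusted result depended on single pigs of both groups. It was 0.0200 without HFC replicate 6 and 0.0499 without HFC replicate 8, and the highest value, 0.0979, came without LFC replicate 3.

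For C1QA to C1QC the median ratio was 0.941 in the LFC and 0.776 in the HFC pigs, with all 8 HFC pigs below the LFC median. The difference on the log2 scale was -0.23 (exact permutation p = 0.0441, adjusted 0.0662), and without single pigs p was up to 0.0875. The ratio of C1QA to C1QB differed by -0.04 (exact permutation p = 0.746), less than the SD within either group. Both mean ratios to C1QC were lower in the HFC pigs. For C1QB to C1QC the difference was larger than the SD of the ratio within either group. For C1QA to C1QC it lay between the SD of the ratio in the LFC pigs, 0.25, and that in the HFC pigs, 0.16. Both differences were smaller than the SD of the level of each of the 3 genes over the 16 pigs on the log2 scale.

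**Figure D5:**
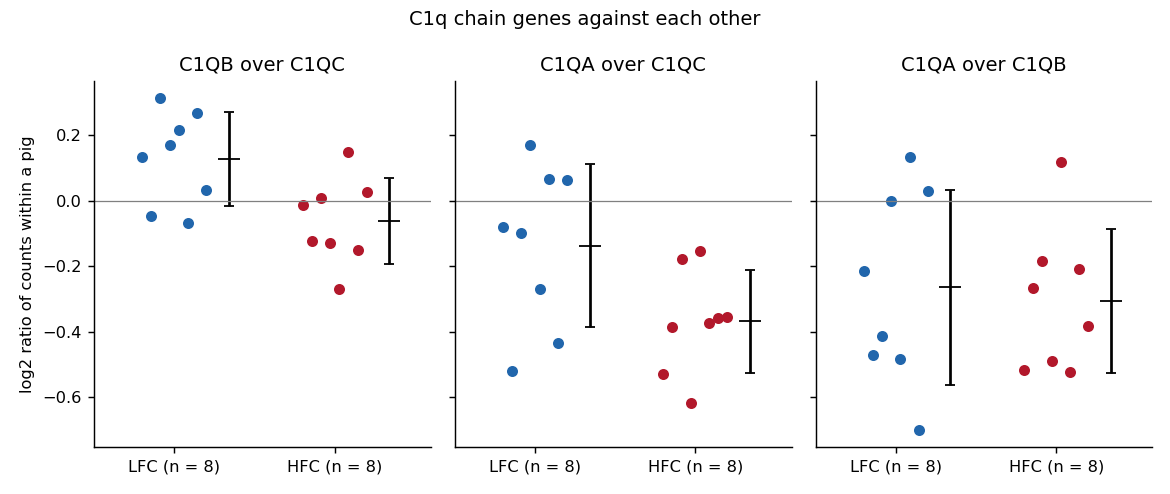
Log2 ratio of the counts of C1QB to C1QC, C1QA to C1QC and C1QA to C1QB within each pig (vertical axis), with 1 point per pig, LFC in blue and HFC in red, and black bars for the mean and SD. The means of the first ratio are 0.13 in the LFC and -0.06 in the HFC pigs, and those of the last ratio differ by -0.04.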

How the data were processed

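RNA was extracted from whole pituitaries, and the libraries were not strand-specific and were read as single reads of 85 bases in 4 technical runs. The authors trimmed the reads with Flexbar (quality over 20, over 36 bases) and mapped them on Sscrofa11.1 using Ensembl genes, naming Bowtie 2, STAR and RSEM. Which tool wrote the counts is not given in the sources used here. The authors deposited unnormalized counts per gene and pig. From their table of the comparison, which holds group means, fold changes and p-values, only identifiers, symbols and positions were used. Puławska libraries were not analysed here.

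Groups came from the sample labels, which give low or high feed conversion under a field named shear force, and the values were read as the feed conversion group that the paper describes. The replicates are separate pigs. With R 4.3.3 and edgeR 4.0.16, counts were scaled by TMM, filtered by filterByExpr (13621 genes) and tested by quasi-likelihood with Benjamini-Hochberg adjustment over all genes. A gene was called at an adjusted p up to 0.05 together with a 1.3-fold change. Standard errors were taken from the F statistic. Exact permutation tests with all 16 pigs used all 12870 splits into 8 and 8. They were run on log2(CPM + 1) for the levels and on the log2 ratio of counts for the C1q ratios. Correlations used 100000 resamples. Pairs of libraries within groups all differed beyond sampling noise (chi-square per degree of freedom 11.4 to 85.9). The alternatives were DESeq2 1.42.0, limma 3.58.1 voom with quality weights, other scalings and filters, robust estimation, a replicate block, a pseudocount of 0.1, a prior count of 0.5 and each pig left out. The scripts were tested on simulated data.

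The 9 genes, the 21 gene lists (354 symbols, 234 tested) and the tests were chosen with earlier results of these data known. Named were the 9 genes, role partners, the 3 genes with the highest r for each, and from each list the 2 genes with the smallest p in its main direction and 1 in the other, of which those that bear on the 9 genes are described. Not every gene that this rule selects is reported here. Symbols of the comparison and of the reference were the same in 96.2% of 8982 genes.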

Additional observations from a re-analysis of the deposited data

Results flagged for a closer look

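LY96, the partner of TLR4 in the recognition of the lipopolysaccharide that CD14 delivers, had 18.8 CPM in HFC replicate 5, set apart from the other HFC pigs by more than a limit for single deviating samples allows. The others had between 3.79 and 7.99 CPM. The log2 fold change was -0.06 with all pigs and -0.40 without that pig (unadjusted p = 0.121, edgeR). CD14 had 2.82 CPM in the same pig. Of the 50 groups of 8 pigs that were examined in this way 1 stood out, whereas chance sets apart about 1 in 20.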

How the results depend on the processing

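With 8 pigs in each group and spreads between pigs as wide as those of AIF1 and CSF1R, differences in the low genes were hard to detect. Counting error added to this in CD14, TYROBP, AIF1 and CD163. In each it was smaller than the coefficient of variation between pigs estimated by edgeR, which was 0.28, 0.33, 0.47 and 0.40. AIF1, CD14, C1QA, C1QB and TYROBP kept a negative log2 fold change in all 28 alternative fits. DESeq2 called 29 genes, 2 of them in the lists. The number of the 9 genes at an unadjusted p of at most 0.05 was 4 in limma voom, 3 with the replicate block, 4 without LFC replicate 5 and HFC replicate 6, and 0 to 4 when each pig was left out (2 without LFC replicate 2, 1 without each of LFC replicates 7 and 8 and HFC replicate 1, 4 without HFC replicate 6). All were lower in the HFC pigs. The share of all genes in that direction was 9.01% in limma voom, 4.05% without both pigs and 5.15% without HFC replicate 6. For the replicate block and the other pigs left out this share is not given here, so those counts cannot be judged. The 9 genes are also not independent of each other. The log2 fold change of CSF1R was -0.12 in limma voom, -0.037 with the replicate block and -0.040 without LFC replicate 5 and HFC replicate 6, and -0.17 to 0.23 with each pig left out. That of CD74 was -0.0092 with upper-quartile scaling, -0.024 with the block, -0.0029 without those 2 pigs and -0.083 to 0.071 with each pig left out. For CD163 it was -0.35 to 0.067 and for C1QC -0.24 to 0.014. The r of CD163 and C1QB was -0.15 without the 2 farthest pigs and -0.20 to 0.40 with each pig left out. The C1QA to C1QC difference was -0.29 to -0.19 and the C1QB to C1QC difference -0.22 to -0.16. Causes were not tested. Same-numbered pigs shared only a number: 3 of 8 such pairs had a correlation over 0.1, and none of the pigs correlated best with its own number.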

Other observations

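Other cell types of the gland showed their own directions between the groups, at unadjusted p-values only and with no call in edgeR. Of 13 endothelial genes tested 10 were higher in the HFC pigs, and 3 of these had an unadjusted p up to 0.05, among them VWF, the clotting factor stored by endothelium, with a log2 fold change of 0.78 and FLT1, a VEGF receptor, with 0.59. In the list of fibroblasts and pericytes 8 of 10 were higher in the HFC group, 2 of them at that level, COL1A2 at 0.89 and NOTCH3 at 0.47. All 4 red blood cell genes tested were higher in the LFC pigs, with GYPC at -0.46 and ALAS2 at -0.97 at that level. Of 6 B and plasma cell genes 5 were higher in the LFC pigs, and CD79B and JCHAIN were at that level with -0.73 and -0.84. Of 8 T and NK cell genes 6 were higher in the LFC pigs, with CD247 at -0.39 as the 1 at that level. Of 20 interferon-induced genes 16 were higher in the LFC pigs and 6 were at that level, among them BST2 at -1.06 and IFI44 at -0.57. The summed level of the interferon-induced list reached 3301 CPM in LFC replicate 4, and 0 of its genes were at that level once this pig was left out. The count in the endothelial list was 1 without HFC replicate 1 and 5 without HFC replicate 3, and in the other lists of this paragraph it was 1 to 4 when each pig was left out.

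Macrophage cytokines and chemokines were often too low to test, with 9 of 18 past the filter, 5 higher in the HFC and 4 in the LFC pigs and none at an unadjusted p up to 0.05. Of 4 dendritic cell genes 3 were higher in the LFC pigs, and ZBTB46, the 1 at that level, was higher in the HFC pigs at 0.55 but missed it without HFC replicate 3. Only 3 neutrophil and 2 mast cell genes passed the filter, and none was at that level, nor was any of 11 glia, 8 folliculostellate and stem cell or 12 glucocorticoid-induced genes. Of 14 hormone cell genes 1 was at that level in the direction of the HFC pigs, PRL at 1.27, and 3 in that of the LFC pigs, PCSK2 at -1.29 among them. All these counts stand beside 7.03% of all genes in the direction of the HFC pigs and 4.41% in that of the LFC pigs.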
